A study of Homo sapiens with 3 samples.

Results

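Chromosome 13 held fewer peaks of histone H4 lysine 12 lactylation (H4K12la) in 786-O cells than in Caki-1 cells: 766 of 62777 peaks in the 786-O list, against 1611 of 60760 and 1866 of 67839 peaks in the lists of Caki-1 replicates 1 and 2. Every peak on the chromosome was taken (GRCh38), in windows of 10 Mb. The chromosome was chosen by the number of peaks itself, since its share of the list was low in 786-O, so that contrast is described here and not tested. The question of the series was where this mark lies in renal cancer cells. Its untreated cells were profiled by CUT&Tag, in which an antibody brings a transposase to chromatin that carries the mark. 786-O (1 library, replicate 2) is a line of clear cell renal carcinoma without functional VHL, the ubiquitin ligase subunit that removes hypoxia-inducible factors. Caki-1 (2 libraries) is a line from a metastasis of clear cell renal carcinoma that keeps VHL. Each line is a single established culture line, and whether the Caki-1 replicates are separate cultures is not in the labels.

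Lactylation attaches lactate, an end product of glycolysis, to histone lysines, and it is found with acetylation at active promoters and enhancers. Clear cell renal carcinoma is known for strong glycolysis. Chromosome 13 is acrocentric, which means that its short arm is tiny and carries repeats. Its long arm has few genes for its length, long stretches without any gene, and well-known tumour suppressors such as RB1 and BRCA2.

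No source used here states how deeply the libraries were read, so a difference in the number of peaks between libraries cannot be told apart from one in depth, and shares of each list are given. The strength of a peak is a deposited value whose column has no header. From the values it was read as a summit signal for 786-O and Caki-1 replicate 1, and as a score for Caki-1 replicate 2. The words signal and score below rest on that reading. These values are the authors' own and are not compared between lists. Where a gene has several values they stand in the order 786-O, Caki-1 replicate 1 and Caki-1 replicate 2, and each is to be read against its own list, whose medians were 21, 21 and 48. A percentile rank within a list gives the share of that list's peaks that are weaker, with ties at their mean. 786-O has no replicate here, and intervals below are 95% exact (Clopper-Pearson) intervals that cover counting error only. As a check of tissue, CDH16, which marks renal epithelium, had a peak within 1 kb of a gene end in all 3 libraries, and PAX8, a factor of the renal lineage, had one in both Caki-1 libraries and a peak within 5 kb in 786-O. The renal markers LRP2, CUBN, PAX2 and LHX1 had no gene-end peak in 786-O, and the last 3 of them had none in Caki-1 either. The leukocyte markers PTPRC and CD3E had no such gene-end peak in any library, of 3 endothelial markers 0, 1 and 0 had one, and of 3 fibroblast markers 1 had one in each library.

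Promoters of 4 genes marked in all 3 libraries are shown first, because their peaks illustrate full cover of the promoter in each library (SUGT1, BORA, UFM1) or less cover in 786-O (SUCLA2). Each is the 250 bases before the RefSeq start on GRCh38.p14, read 5′ to 3′ on the gene's strand. SUGT1 encodes a co-chaperone of kinetochore assembly (chr13:52652586-52652835, plus strand). BORA encodes an activator of Aurora A kinase at mitotic entry (chr13:72727673-72727922, plus strand). UFM1 encodes a ubiquitin-like modifier (chr13:38349601-38349850, plus strand). SUCLA2 encodes a subunit of succinyl-CoA ligase of the citric acid cycle (chr13:48001274-48001523, minus strand). Capitals mark matches, on either strand, to the GC box (GGGCGG), an ETS motif (CCGGAAG), the CCAAT box (CCAAT), the TATA box (TATAAA) and an E box (CACGTG).
SUGT1: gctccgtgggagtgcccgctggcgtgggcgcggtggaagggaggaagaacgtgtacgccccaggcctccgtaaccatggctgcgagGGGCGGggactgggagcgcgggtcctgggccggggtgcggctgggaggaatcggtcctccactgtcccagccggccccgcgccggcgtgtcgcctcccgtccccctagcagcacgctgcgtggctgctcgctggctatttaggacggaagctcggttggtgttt
BORA: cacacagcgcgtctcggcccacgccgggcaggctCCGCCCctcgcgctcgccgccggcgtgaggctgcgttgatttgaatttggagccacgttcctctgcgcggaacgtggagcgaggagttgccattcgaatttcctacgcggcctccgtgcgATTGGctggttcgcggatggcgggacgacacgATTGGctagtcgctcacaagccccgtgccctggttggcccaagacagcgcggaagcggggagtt
UFM1: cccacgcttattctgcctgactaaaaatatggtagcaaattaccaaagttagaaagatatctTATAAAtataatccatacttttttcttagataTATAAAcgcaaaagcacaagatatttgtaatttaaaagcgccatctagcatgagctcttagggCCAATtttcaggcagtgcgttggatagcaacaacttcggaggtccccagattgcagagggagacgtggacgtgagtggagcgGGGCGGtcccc
SUCLA2: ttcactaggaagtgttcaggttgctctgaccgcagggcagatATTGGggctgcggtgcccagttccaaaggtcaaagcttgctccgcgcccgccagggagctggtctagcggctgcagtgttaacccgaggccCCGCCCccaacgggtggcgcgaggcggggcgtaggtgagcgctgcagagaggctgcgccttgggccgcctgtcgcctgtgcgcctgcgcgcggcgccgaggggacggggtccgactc

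Promoters of 3 genes that had peaks in each Caki-1 library but none in 786-O within 5 kb of either gene end follow, because they show sequence that had a peak in 1 line and not in the other. SLC25A15 encodes the mitochondrial ornithine carrier (chr13:40789361-40789610, plus strand). ATP11A encodes a phospholipid flippase (chr13:112689788-112690037, plus strand). CDC16 encodes a subunit of the anaphase-promoting complex (chr13:114234647-114234896, plus strand). In CDC16 the ETS motif, read on the opposite strand, shares a base with the GC box next to it.
SLC25A15: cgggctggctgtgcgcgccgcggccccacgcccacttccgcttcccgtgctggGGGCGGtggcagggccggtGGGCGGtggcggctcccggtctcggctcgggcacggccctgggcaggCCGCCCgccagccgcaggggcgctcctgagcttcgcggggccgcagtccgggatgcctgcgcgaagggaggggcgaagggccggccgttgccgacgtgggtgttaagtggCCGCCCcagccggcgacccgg
ATP11A: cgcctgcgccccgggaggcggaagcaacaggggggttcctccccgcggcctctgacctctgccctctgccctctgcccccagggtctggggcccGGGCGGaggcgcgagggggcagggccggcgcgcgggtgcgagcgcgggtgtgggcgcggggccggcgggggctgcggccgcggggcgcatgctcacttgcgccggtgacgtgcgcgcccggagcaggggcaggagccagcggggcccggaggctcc
CDC16: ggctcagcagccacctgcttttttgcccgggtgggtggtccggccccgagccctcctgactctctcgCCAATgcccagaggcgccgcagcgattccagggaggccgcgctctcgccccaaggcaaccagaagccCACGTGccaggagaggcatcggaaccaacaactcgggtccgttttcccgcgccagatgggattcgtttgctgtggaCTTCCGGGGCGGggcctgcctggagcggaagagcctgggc

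All 250 bases of SUGT1, BORA and UFM1 lay inside a peak in each library. At SUCLA2 the 786-O peak covered 158 of the 250 bases and the Caki-1 peaks covered all of them. At SLC25A15 and ATP11A no base was covered in 786-O and all 250 were in each Caki-1 library. At CDC16 none was covered in 786-O, and 29 and 9 bases were covered in Caki-1 replicates 1 and 2, whose peaks lay mostly past the start. The GC content of these promoters was 71.2%, 66.4%, 42.4% and 69.2% for SUGT1, BORA, UFM1 and SUCLA2, and 79.6%, 81.6% and 67.6% for SLC25A15, ATP11A and CDC16. UFM1 stands apart as the one of the 7 with matches to the letters of the TATA box and the lowest GC content. The distance of these matches from the start was not weighed.

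Promoter windows were available for 299 protein-coding genes of the chromosome. 36 of them (12.04%) overlapped a peak in each Caki-1 library but not in 786-O, against 6.89% of 15812 windows on all chromosomes, and 111 (37.1%) overlapped a peak in all 3, against 39.8%. A further 117 (39.1%, against 42.1%) overlapped none, and the rest did in other combinations. The share marked in Caki-1 alone depends on the peak number by which the chromosome was chosen, and is not a separate result. The windows marked in Caki-1 alone were as rich in GC as the others with a peak: their median GC content was 68.6%, against 65.6% for windows marked in all 3 and 54.0% for those without any peak. A GC box stood in 63.9% of the windows marked in Caki-1 alone, in 68.5% of those marked in all 3, in 35.0% of those without a peak and in 55.8% of all promoters. The CCAAT box stood in 19.4%, 36.9% and 29.9% of the same 3 groups, and in 34.4% of all promoters. The ETS motif stood in 19.4% of the windows marked in Caki-1 alone, in 17.1% of those marked in all 3, in 0.855% of those without a peak and in 11.7% of all promoters. The TATA box stood in 8.33%, 6.31% and 11.1% of the 3 groups, and the E box in 11.1%, 10.8% and 5.98%, against 9.36% and 7.79% of all promoters. The like groups on all chromosomes differed for the ETS motif. It stood in 8.36% of 1089 windows marked in Caki-1 alone, against 20.1% of those marked in all 3. The CCAAT box stood in 27.7% and 39.5% of these 2 groups. The 36 windows of chromosome 13 thus do not show how often the ETS motif stands in windows marked in Caki-1 alone elsewhere.

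The share of the list that lay on chromosome 13 was 1.22% in 786-O (95% CI 1.14 to 1.31), against 2.65% (2.53 to 2.78) and 2.75% (2.63 to 2.88) for replicates 1 and 2 of Caki-1. The 786-O share was 0.452 times the mean Caki-1 share, and 0.460 and 0.444 times the shares of replicates 1 and 2. This was the lowest ratio of the 23 chromosomes, and the other 22 ranged from 0.789 on chromosome 17 to 2.19 on chromosome 14. Between the Caki-1 replicates the same ratio kept between 0.975 and 1.04 on every chromosome. At the mean Caki-1 share, the 786-O list would hold 1696 peaks on the chromosome. Peak density was 6.70 per Mb in 786-O, against 14.1 and 16.3 per Mb in the Caki-1 libraries.

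**Figure D1:**
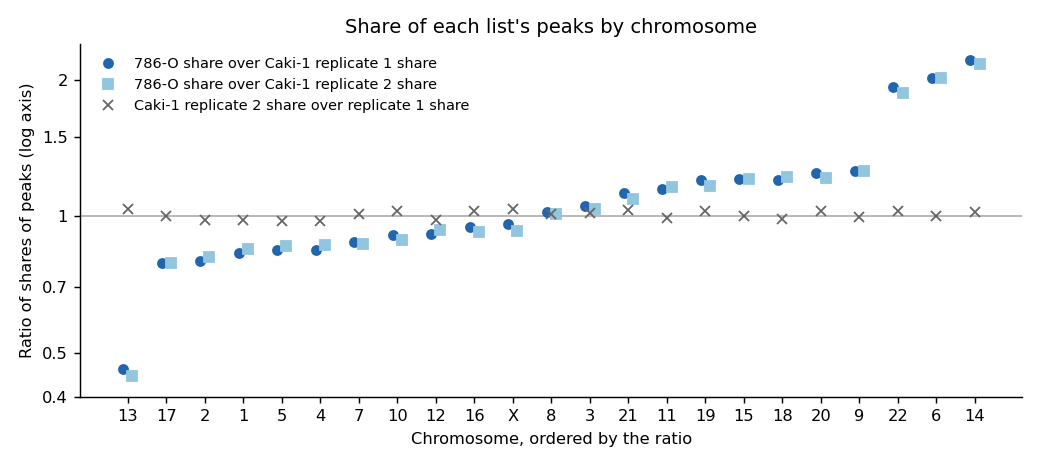
For each of 23 chromosomes, the share of the 786-O list over the share of each Caki-1 list (circles and squares), and the share of Caki-1 replicate 2 over that of replicate 1 (crosses), on a log axis. Chromosome 13 sits alone at 0.460 and 0.444, below the 0.789 of chromosome 17, while the crosses keep between 0.975 and 1.04.

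The peaks of the chromosome were as wide as others of their lists, and few of those in 786-O were among the strongest of the list. Their median width was 493 bp, against 497 bp over the whole 786-O list, and the widths were 518 and 565.5 bp in the Caki-1 libraries, against 520 and 576 bp over their lists. The highest value on the chromosome was 80 in 786-O, 98 in Caki-1 replicate 1 and 477 in replicate 2. Only 24 of the 766 peaks (3.13%) belonged to the top 10% of the 786-O list, against 108 (6.70%) and 150 (8.04%) in Caki-1. Chromosome 13 has 2.96 protein-coding genes per Mb, and chromosomes 18 and 4 come near it with 3.36 and 4.05. On chromosome 4, 8.65% of 786-O peaks and 5.68% and 7.77% of Caki-1 peaks belonged to the top 10%. On chromosome 18 these shares were 6.13%, 6.78% and 7.65%.

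The lower number in 786-O ran along the whole long arm. No library had a peak in the first window, which lies in the short arm, and each of the 11 windows with peaks had a lower share in 786-O than in both Caki-1 libraries. Over all chromosomes, 49.8% of windows did. A ratio under 0.6 was found in 11 of 11 windows of chromosome 13, against 33 of 298 windows on the other chromosomes and 14.2% of windows in all. That cut lies just above the highest ratio of the chromosome, 0.572. The chromosome was also chosen by these counts, so 11 of 11 is not a separate result. Low windows also lay together elsewhere: 7 of the 33 were on chromosome 1, 6 on chromosome 5 and 5 on chromosome 4. Windows 6 to 10 of chromosome 5 had ratios from 0.251 to 0.345, below the median of 0.472 for chromosome 13. The highest ratios on the chromosome were 0.572 between 20 and 30 Mb (137 peaks in 786-O, against 235 and 255 for Caki-1) and 0.565 between 10 and 20 Mb (14, against 22 and 29). From 30 to 40 Mb, the window of BRCA2, 95 peaks stood against 196 and 216, and from 40 to 50 Mb, the window of RB1, 137 stood against 246 and 290. The window from 90 to 100 Mb had 109 peaks in 786-O, against 212 and 251, and the last window, from 110 Mb on, had 77, against 159 and 188.

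The lowest ratios lay in a pair of windows with few genes. The window from 10 to 20 Mb also has 6 protein-coding genes, but its ratio was 0.565. Between 60 and 70 Mb, where 6 protein-coding genes lie, 786-O had 12 peaks, against 90 and 96 in Caki-1, a ratio of shares of 0.132. Between 80 and 90 Mb, also with 6 genes, it had 6 peaks, against 52 and 69, a ratio of 0.102. These were the lowest ratios of all 309 windows, the lowest elsewhere being 0.231 on chromosome 4. The neighbouring window from 50 to 60 Mb, with 33 genes, stood at 0.334 with 49 peaks in 786-O, against 141 and 160. On other chromosomes 1 window had at most 6 protein-coding genes and a mean of at least 50 Caki-1 peaks, and its ratio was 0.782.

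**Figure D2:**
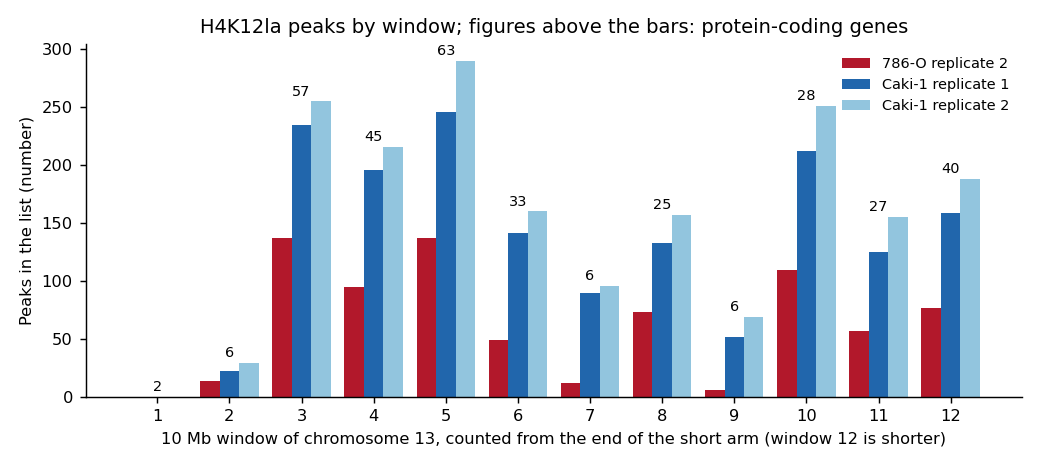
Number of peaks in each 10 Mb window of chromosome 13 in 786-O (red) and in Caki-1 replicates 1 (dark blue) and 2 (light blue), with the number of protein-coding genes above the bars. The red bar is the shortest in each of the 11 windows with peaks, and windows 7 and 9, with 6 genes each, hold 12 and 6 peaks in 786-O.

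The longest stretches without a 786-O peak were several Mb long, and both Caki-1 libraries had peaks in each. The longest spanned 7.08 Mb (chr13:52686634-59764153) and held 42 and 51 peaks of Caki-1 replicates 1 and 2. It runs from SUGT1 to DIAPH3 over the protocadherin genes PCDH8 and PCDH17, which encode neural adhesion proteins, and OLFM4, a secreted glycoprotein of gut epithelium. The next, of 7.04 Mb (chr13:80086709-87124102), held 36 and 51 Caki-1 peaks and spans SPRY2, an inhibitor of receptor tyrosine kinase signalling, and SLITRK1 and SLITRK6, membrane proteins of neurons. A stretch of 5.06 Mb (chr13:67231341-72291125) held 35 and 36 Caki-1 peaks and spans KLHL1 and the developmental transcription factor DACH1. In Caki-1 the longest such stretches between peaks measured 1.22 Mb in replicate 1 and 1.23 Mb in replicate 2, and the median gap was 0.0314 Mb in 786-O, against 0.0218 and 0.0184 Mb in Caki-1.

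Many Caki-1 peaks inside these stretches were called in both replicates. In the windows from 60 to 70 and from 80 to 90 Mb the Caki-1 peaks had median ranks of 21.7 and 24.2 within the list of replicate 1, and of 46.7 and 41.7 within that of replicate 2. The longest run of peaks of replicate 1 that overlapped replicate 2, with no 786-O peak between them, counted 24 peaks (chr13:80132812-86975161) with a median signal of 15.5 and a highest of 23 in replicate 1. Further runs counted 22 peaks (chr13:53921085-59745729), 17 (chr13:67278123-72204738), 14 around PCDH20 (chr13:60663438-63636713) and 12 at PCDH9 (chr13:64130684-66666380). Their median signals lay between 14.5 and 17.5, against 21 over the whole list of replicate 1, and the highest single value in them was 33. In the other direction the runs were short. The longest run of 786-O peaks with none of Caki-1 between them counted 4 (chr13:111511208-112144602), in the stretch that holds SOX1, a transcription factor of neural progenitors. Runs of 3 lay at GJB2 (chr13:20184694-20192110) and in the stretches of SERTM1 (chr13:36766361-36789452) and UGGT2 (chr13:95868190-95879966), and one of 2 at chr13:19589037-19597802 touched no protein-coding gene.

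The difference was smallest at gene ends and largest outside genes. A gene end here covers 1 kb to the left and right of both annotated ends of protein-coding genes, mostly a transcription start: of the genes with such a peak and a known strand, 155 of 160 in 786-O, and 172 of 179 and 182 of 189 in Caki-1, had it at the start. At gene ends chromosome 13 had 155 peaks in 786-O, against 190 and 212 for Caki-1, and the ratio of list shares was 0.790. Elsewhere in genes it had 434, against 875 and 1020, a ratio of 0.470. Outside genes it had 177, against 546 and 634, a ratio of 0.308. On all other chromosomes the 3 ratios were 0.952, 1.00 and 1.08, in the reverse order.

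**Figure D3:**
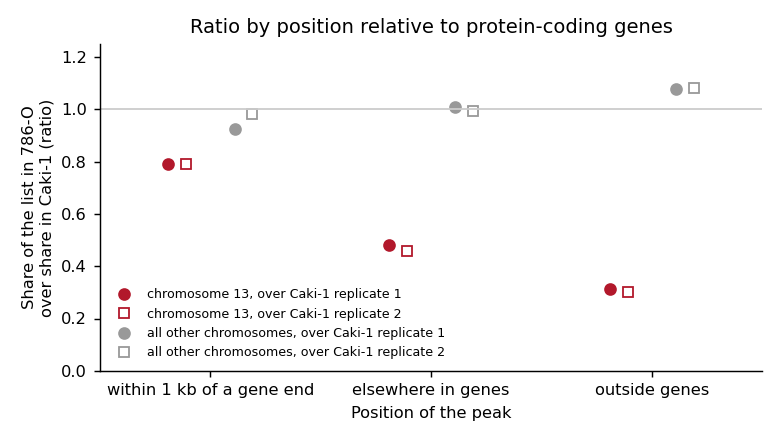
Share of the 786-O list over the share of each Caki-1 list, for peaks within 1 kb of a gene end, elsewhere in genes and outside genes, on chromosome 13 (red) and on all other chromosomes (grey). On chromosome 13 the ratio goes down from 0.790 at gene ends to 0.308 outside genes, while the other chromosomes lie between 0.925 and 1.08.

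Accordingly, gene-end peaks made up 20.2% of the chromosome's peaks in 786-O, against 11.8% and 11.4% for Caki-1, while on other chromosomes they made up 15.8%, 17.4% and 16.4%. Peaks outside genes made up 23.1% in 786-O, against 33.9% and 34.0% for Caki-1. In the window from 60 to 70 Mb 786-O had 3 gene-end peaks, against 4 and 5 in Caki-1, but only 9 peaks elsewhere, against 86 and 91. In the window from 80 to 90 Mb it had 1 gene-end peak, against 2 and 2, and 5 elsewhere, against 50 and 67. Within the 786-O list the gene-end peaks of chromosome 13 had a median rank of 69.7, against 82.6 for gene-end peaks of the other chromosomes. Within the Caki-1 lists the same ranks were 80.1, against 79.4, in replicate 1 and 82.7, against 80.5, in replicate 2.

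Most 786-O peaks of the chromosome lay on Caki-1 peaks, and most Caki-1 peaks had no 786-O counterpart. Of the 766 peaks in 786-O, 73.4% (95% CI 70.1 to 76.5) overlapped a peak of either Caki-1 library by at least 1 bp, against 54.6% of all 786-O peaks. That was the highest share of the 23 chromosomes. It was 60.8% with replicate 1 alone (44.5% of the whole list) and 66.2% with replicate 2 alone (47.8%). Of the Caki-1 replicate 1 peaks, 28.9% (26.7 to 31.1) overlapped a 786-O peak, the lowest of the 23 chromosomes, against 46% of the whole list. Of the replicate 2 peaks 26.8% did, against 43.9%. With fewer 786-O peaks, fewer Caki-1 peaks can have a 786-O counterpart. Shares of overlap between the lines, here and below, thus depend on the peak number by which the chromosome was chosen. They are not a separate result. Between the Caki-1 replicates the overlap differed less from that of the rest of the genome: 63.4% of replicate 1 peaks lay on replicate 2 peaks, against 66.2% on other chromosomes, and 54.3% of replicate 2 peaks lay on replicate 1 peaks, against 59.0%.

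Joined over the 3 lists, the peaks of the chromosome formed 2647 regions. All 3 libraries covered 412 of them (15.6%), against 20.6% on the other chromosomes. Both Caki-1 libraries without 786-O covered 594 (22.4%), against 13.6%. 786-O alone covered 204 (7.71%), against 24.9%. A further 535 and 760 regions were covered by replicate 1 alone and by replicate 2 alone, and 142 by 786-O and 1 Caki-1 library. These shares, too, depend on the peak number by which the chromosome was chosen.

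Strong Caki-1 peaks overlapped a 786-O peak more often than weak ones. Each list was divided into 5 groups by strength, from weakest to strongest. Of the Caki-1 replicate 1 peaks on chromosome 13, 6.74%, 20.3%, 22.99%, 45.5% and 80.5% of groups 1 to 5 overlapped a 786-O peak, against 22.2%, 33.1%, 43.9%, 56.2% and 78.3% on the other chromosomes. The strongest group thus overlapped 786-O about as often as elsewhere, and the gap opened below it. For replicate 2 the shares were 6.55%, 14.5%, 18.7%, 36.6% and 65.0%, against 19.6%, 28.6%, 39.7%, 55.0% and 79.3%, and here the strongest group was lower on chromosome 13 as well. Conversely, 59.9% of the weakest 786-O peaks on chromosome 13 lay on a Caki-1 peak, against 23.1% on other chromosomes, and 93.8% of the strongest, against 86.8%.

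**Figure D4:**
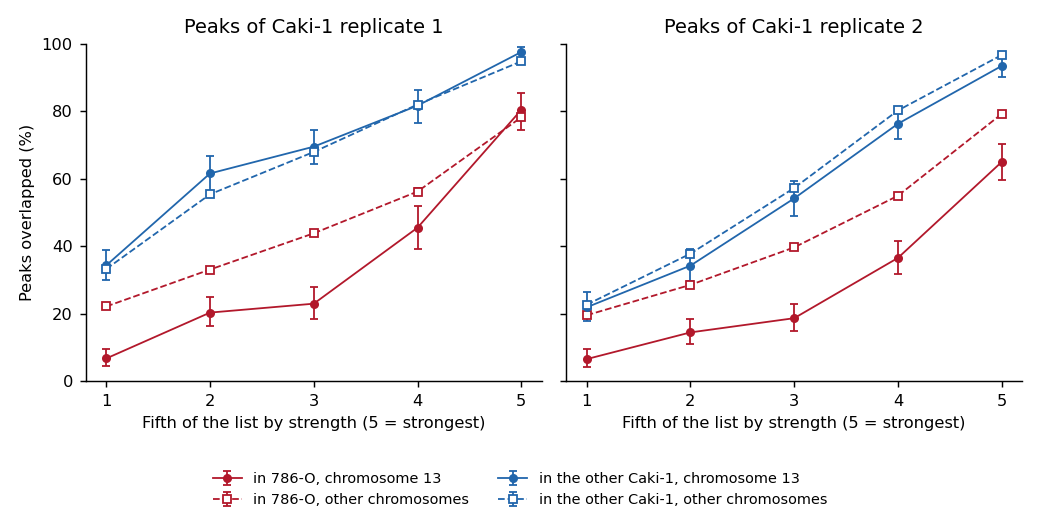
Percent of Caki-1 peaks in each strength group overlapped by a 786-O peak (red) or by the other Caki-1 library (blue), on chromosome 13 (filled, solid line) and on the other chromosomes (open, dashed line), with 95% exact intervals for counting error. The blue lines lie close together, while the solid red line runs below the dashed one, for example at 6.74% against 22.2% in group 1 of replicate 1, except in group 5 of replicate 1.

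The overlap also differed by position. Of the Caki-1 replicate 1 peaks at gene ends of chromosome 13, 70.5% overlapped a 786-O peak, against 76.4% on other chromosomes. Elsewhere in genes 27.7% did, against 41.4%, and outside genes 16.3%, against 37.9%. For replicate 2 the shares were 66.5%, 26.0% and 14.8%, against 74.4%, 39.7% and 36.4%.

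Where all 3 libraries had a peak, the 786-O peak ranked low. Ranks were taken over the 23806 regions covered in all 3 libraries, so that each library ranks the same regions, and these are by construction regions that passed the call in 786-O. The median rank of the 412 regions on chromosome 13 was 29.0 in 786-O, against 55.2 and 55.2 for Caki-1 replicates 1 and 2. The other chromosomes had medians between 37.4 and 67.8 in 786-O, so chromosome 13 was the lowest of 23 there. In Caki-1 it was in the upper part, the order from the lowest being 17 and 22 of 23. The median signal of these regions was 23 in 786-O, which was 0.742 times the median over all 23806 regions in that library. The same quotient was 1.07 and 1.11 in Caki-1. 786-O ranked below both Caki-1 libraries at 310 of the 412 regions (75.2%), against 36.8% of all such regions, and above both at 35 (8.50%), against 38.0% on other chromosomes.

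**Figure D5:**
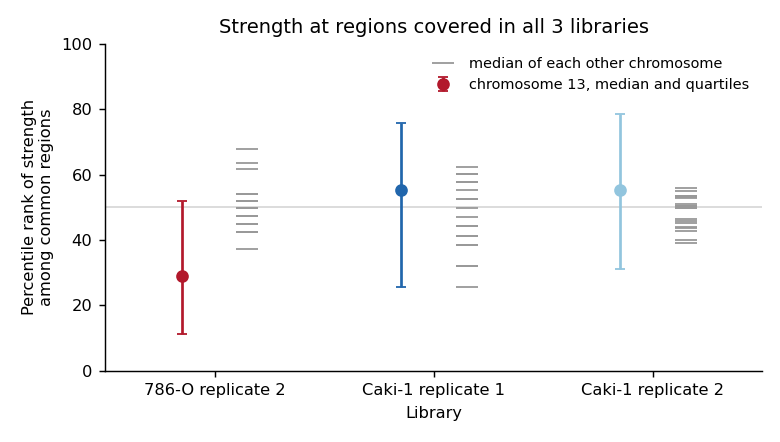
Percentile rank of strength, within each library, of the regions covered in all 3 libraries: median and quartiles of the 412 regions on chromosome 13 (points with bars) beside the median of each of the other 22 chromosomes (grey marks). In 786-O the median of 29.0 lies below every grey mark, while it is 55.2 in both Caki-1 libraries.

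The lower rank held in each window. From 60 to 70 Mb the median was 24.3 over 8 regions in 786-O, against 65.3 and 67.6 for Caki-1, and from 50 to 60 Mb it was 39.9 over 24 regions, against 63.1 and 81.8. From 80 to 90 Mb it was 15.4 over 4 regions, against 38.1 and 57.9. The ranks lay closer from 70 to 80 Mb, with 34.8 over 35 regions, against 47.1 and 49.7. From 100 to 110 Mb they were 19.7 over 31 regions, against 35.2 and 36.7. The summits lay as close together as elsewhere: over 466 overlapping pairs of peaks of 786-O and Caki-1 replicate 1 the median distance between summits was 84.5 bp on chromosome 13, against 86 bp elsewhere, and 53.2% of pairs lay within 100 bp, against 53.7%.

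The chromosome carries 338 of the 19974 protein-coding genes. In 786-O 178 of them (52.7%) were marked, that is, had a gene-end peak, against 202 (59.8%) and 212 (62.7%) in Caki-1. Over all chromosomes the shares were 52.7%, 55.1% and 57.6%. 155 genes (45.9%, against 44.3% of all genes) were marked in all 3 libraries and 103 (30.5%, against 34.6%) in none. Genes with a gene-end peak in both Caki-1 libraries and no 786-O peak within 5 kb of either end numbered 30 (8.88%), against 4.33% of all genes, and are called marked in Caki-1 alone below. Those marked in 786-O with no Caki-1 peak within 5 kb numbered 6 (1.78%), against 2.37%, and there were 11 when Caki-1 replicate 2 was left out. Both counts depend on the peak number by which the chromosome was chosen, and are not a separate result. Of the 30 genes, 8 lay in the last window and 6 each in the windows from 30 to 40 and 40 to 50 Mb.

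Of the genes with the strongest gene-end peaks in all 3 libraries, SUGT1, whose promoter is printed above, reached a summit signal of 80 in 786-O, against 96 for Caki-1 replicate 1, and its score in replicate 2 was 343 (chr13:52652213-52653178 in 786-O). These were the 98.5, 99.6 and 99.1 percentiles of the lists, and 80 was the highest value of the chromosome in 786-O. ZMYM5 and ZMYM2, zinc finger genes of which ZMYM2 is part of a repressor complex, start next to each other and share a peak whose signals were 70 in 786-O and 98 for Caki-1 replicate 1, its score in replicate 2 being 258 (chr13:19863401-19864314). MZT1, a component of the gamma-tubulin ring complex, shares one with BORA, where the values were 63, 73 and 411 in the same order (chr13:72727171-72728300). CAB39L, a scaffold of the kinase LKB1, shares one with the annotated readthrough gene SETDB2-PHF11 and with SETDB2 (60, 66 and 396). DIAPH3, a formin of the actin cytoskeleton, had values of 61, 94 and 250 (chr13:60163536-60164310). RAP2A, a small GTPase, had 66, 83 and 212, and WDFY2, an endosomal protein, had 67, 83 and 224 in the same order. Shared peaks between neighbouring starts cannot be assigned to either gene.

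The strongest peak away from gene ends lay, in each of the 3 lists, within RCBTB2, a regulator of chromosome condensation family gene next to RB1. Its signal was 76 in 786-O (chr13:48532270-48533148), against 86 in Caki-1 replicate 1, and with 477 it had the highest score of the chromosome in replicate 2. In other windows the strongest 786-O peaks lay at EEF1AKMT1 (50), in SPART (61), at TEX30 (49) and at ANKRD10 (64). In the window from 80 to 90 Mb the strongest 786-O peak had a signal of 25 and lay 249268 bp from SPRY2, the nearest protein-coding gene. In Caki-1 the strongest peak of that window lay at SLITRK5, a neuronal membrane protein, and the overlapping LOC124900338, with values of 41 and 176, and the 786-O signal there was 14. At TDRD3, a reader of methylated arginine between 60 and 70 Mb, the signals were 47 and 64 and the score was 386.

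Of the genes marked in Caki-1 alone, SLC25A15 reached 45 (signal) in Caki-1 replicate 1 and 167 (score) in replicate 2, the 91.3 and 92.4 percentiles, and no 786-O peak lay within 5 kb of its ends. ATP11A had a signal of 45 at its start and a highest score of 188 at its far end, with 5 peaks in its body in 786-O, against 15 and 16 for Caki-1. MLNR, the motilin receptor, had 43 and 149. F10, which encodes coagulation factor X, had 33 and 138. LRRC63 had 37 and 88, UBE2L5 had 30 and 107, and PCID2 and CUL4A, which overlap at their starts, had 31 and 89 at peaks that do not overlap each other. CUL4A encodes a scaffold of cullin ubiquitin ligases. ABCC4, an exporter of organic anions and cyclic nucleotides, had 35 and 79 at its start and 12 peaks in its body in 786-O, against 18 and 30. LCP1, the actin bundler L-plastin of leukocytes, had 28 and 101, at the end away from its start. Hence a gene without a 786-O peak at its start could still hold 786-O peaks inside.

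The 6 genes marked in 786-O alone carried weak peaks. ZIC2, a zinc finger factor of brain development, had a signal of 21, the 48.2 percentile (chr13:99980585-99981287). GAS6, the ligand of the TAM receptors, had 20 at the end away from its start. GJB2, which encodes connexin 26, a gap junction protein, had 16, and TEX29 had 11. COL4A1 and COL4A2, the collagen IV chains of basement membranes that start head to head, shared a peak with a signal of 14, the 15.4 percentile (chr13:110307596-110307978). Inside COL4A1 786-O had 2 peaks, against 11 and 11 in Caki-1, and inside COL4A2 10, against 14 and 14.

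The genes with the most peaks in their bodies were partly others in each line. In 786-O they were LRCH1, MYCBP2 and FARP1 with 13 each and LMO7 and ABCC4 with 12 each. In Caki-1, the leading genes were DIAPH3, GPC6 and ABCC4, with FARP1 and PCCA in replicate 1 and STARD13 and FARP1 in replicate 2. DIAPH3 had 11 body peaks in 786-O, against 26 and 32 for Caki-1. GPC6, a heparan sulfate proteoglycan, had 8, against 23 and 27. PCCA, a subunit of propionyl-CoA carboxylase, had 8 in 786-O, against 21 and 20, and STARD13, a GTPase activating protein, 9, against 17 and 22. FARP1 had 13 in 786-O, against 21 and 22, and LRCH1 13, against 14 and 12, so the long genes were not all alike.

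Lists of genes on the chromosome, written by hand by function, were read against the 44.3% of all genes that were marked in all 3 libraries. Housekeeping lists lay above it. The first held 21 genes put together as ubiquitin, lysosome and trafficking, among them also WBP4. Of these 21 genes 18 were marked in all 3 libraries, 2 had none and LAMP1, a lysosomal membrane protein, was marked in Caki-1 alone (signal 21, score 40). UFM1 had values of 59 in 786-O, against 78 and 362 for Caki-1, TPT1, a translationally controlled protein, had 58, 64 and 361, and UCHL3, a deubiquitinase, had 54, 55 and 394. RNF6, a ubiquitin ligase, had 30 in 786-O, against 55 and 320.

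Of 18 genes of cell cycle and genome upkeep 14 were marked in all 3 libraries, none was without a peak in every library, and CUL4A and CDC16 were marked in Caki-1 alone. RB1, the retinoblastoma tumour suppressor, had a signal of 24 in 786-O, against 36 and 125 in the Caki-1 libraries, the 58.1, 83.5 and 86.4 percentiles, with 6 peaks in its body in 786-O, against 14 and 11. BRCA2, which acts in homologous recombination, had 31, against 50 and 186. CDK8, a kinase of the Mediator complex, had 34, against 39 and 200. DIS3, a ribonuclease of the exosome, had 48, against 51 and 187. LATS2, a Hippo kinase, had 29, against 25 and 119. CDC16 had 24 and 113 in Caki-1 and no peak in 786-O within 5 kb. LIG4, the ligase of end joining, was marked in 786-O (23) and in replicate 2 (40) but not in replicate 1, and TFDP1, the partner of E2F factors, was marked in 786-O (17) and in replicate 1 (31) but not in replicate 2. The Caki-1 replicates thus disagreed on single genes.

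Another list held 17 genes put together as mitochondria and metabolism, among them also POLR1D, EXOSC8 and IPO5. Of these 17 genes 13 were marked in all 3 libraries, 3 in none, and SLC25A15 in Caki-1 alone. SUCLA2 had a signal of 25 in 786-O, against 55 and 258 in the Caki-1 libraries. POLR1D, a subunit of RNA polymerases I and III, had 46, against 78 and 181. PCCA had 38, against 35 and 208 at its start, and MRPL57 of the mitochondrial ribosome shared a peak with SKA3 of the kinetochore (42, against 50 and 200). Of 25 transcription factor and chromatin genes 11 were marked in all 3 libraries, 8 in none and ZIC2 in 786-O alone. SUPT20H, a SAGA subunit, had 31, against 57 and 271, and HMGB1, a chromatin protein, had 28, against 42 and 109 in a peak shared with USPL1. ELF1, an ETS factor, had 43, against 30 and 124, and FOXO1 had 18, against 19 in replicate 1 and no gene-end peak in replicate 2. KLF5 had no gene-end peak but peaks within 5 kb in all 3 libraries. DACH1, SOX1, PDX1, GSX1 and POU4F1, which act in development, had no peak within 5 kb in any library.

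Lists put together as tissue-specific lay lower. One held 11 genes put together as renal transport and tubule, among them also ATP4B, ATP12A, ATP8A2 and SLC10A2. Of these 11 genes 4 were marked in all 3 libraries, 3 in none and ABCC4, ATP11A and KL in Caki-1 alone. Among the 4 was ATP4B, marked at the end away from its start, with a signal of 11 in 786-O, the 1.96 percentile. KL encodes Klotho, the co-receptor of FGF23 in the tubule, and had 17 and 128 in Caki-1. SLC7A1, an arginine transporter, had 16 in 786-O, against 35 and 75, and ATP7B, a copper exporter, had 41, against 50 and 199 in a peak shared with ALG11. Of 13 genes of neural adhesion and guidance 4 were marked in all 3, 6 in none and PCDH20, DCLK1 and MYO16 in Caki-1 alone. PCDH9 had 21 in 786-O, against 38 and 118, and NALCN, a sodium leak channel, had 15, against 31 and 102. Of 18 genes of matrix, vessel and growth factor 1 was marked in all 3 (CPB2: 37, against 52 and 291), 9 in none, F10, PROZ and GPC5 in Caki-1 alone, and COL4A1, COL4A2 and GAS6 in 786-O alone. The peaks of CPB2 and PROZ, like that of GAS6, lay at the end away from the start. FLT1, the VEGF receptor, and POSTN, periostin, had no gene-end peak in any library.

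Of 10 genes put together as immune and blood, a list that also holds MYCBP2, KCTD12 and LMO7, none was marked in all 3, 5 were in none, and LCP1 and TNFSF13B, the B cell factor BAFF, were marked in Caki-1 alone (TNFSF13B: 22 and 109). Of 3 gap junction genes GJA3 was marked in all 3 (16, against 13 and 53), GJB2 in 786-O alone and GJB6 in none. Of 4 non-coding loci DLEU2 had 48, against 52 and 170, DLEU1 had 39, against 61 and 228, DLEU7 had none, and MIR17HG was marked in Caki-1 alone.

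MIR17HG is the host transcript of a cluster of microRNAs that repress regulators of the cell cycle and of apoptosis. Its 6 hairpins lie at chr13:91350605-91351391 on the plus strand, and their main mature arms are shown with the seed, bases 2 to 8, in capitals (RefSeq, GRCh38.p14). miR-17 and miR-20a share a seed, miR-18a has one that differs from theirs, miR-19a and miR-19b share another, and miR-92a has its own.
hsa-miR-17-5p: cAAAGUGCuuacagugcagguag
hsa-miR-20a-5p: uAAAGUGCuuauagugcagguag
hsa-miR-18a-5p: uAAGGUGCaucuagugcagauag
hsa-miR-19a-3p: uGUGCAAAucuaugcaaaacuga
hsa-miR-19b-3p: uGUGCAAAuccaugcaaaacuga
hsa-miR-92a-3p: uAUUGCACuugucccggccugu

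In Caki-1 a peak lay next to this cluster, with the value 28 in replicate 1 (chr13:91348400-91349290) and 133 in replicate 2 (chr13:91347379-91349321), 1315 and 1284 bp from the MIR17 hairpin. In 786-O the nearest peak lay 18484 bp from it and had a signal of 14 (chr13:91369172-91369599). At MIR16-1 and MIR15A, the pair inside DLEU2 that is often lost in chronic lymphocytic leukaemia, the nearest peak lay 1231 bp from MIR16-1 in 786-O, against 2520 and 1520 bp in Caki-1.

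The widest peaks showed no common place. In 786-O they measured 1907 bp in ZMYM2 (chr13:20042842-20044748), 1614 bp at PARP4 and 1480 bp at RNASEH2B, a subunit of ribonuclease H2. In Caki-1 replicate 1 they measured 2117 bp at TDRD3 (chr13:60396216-60398332), 1942 bp in DCLK1 and 1856 bp in PCCA. In replicate 2 they measured 2340 bp at TRPC4 (chr13:37868786-37871125), 2220 bp in KLF12 and 2036 bp in PARP4.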

How the data were processed

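H4K12la CUT&Tag peaks of 3 libraries were used, 1 of 786-O (labelled replicate 2) and 2 of Caki-1 (labelled replicates 1 and 2). The other 786-O replicate is not analysed here. The submitters' processing notes list fastp (0.19.6), Bowtie2 and deepTools, and as builds GRCh38 and hg38, without saying what each was used for. What called the peaks, at which threshold, against which control and from how many reads, no source used here says. Every library came with a separate deposited list, so peaks were not called on pooled reads. The strength in column 6 was deposited by the authors as a whole number. The authors deposited what was read as a signal at the summit for 786-O and Caki-1 replicate 1, whose column 5 is inside the peak in 100% of lines. The authors deposited what was read as a score for Caki-1 replicate 2, whose column 5 is inside in 9.65% of lines and was not used. The other deposited columns are positions and widths.

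The lists were filtered no further. Gene positions came from RefSeq (GRCh38.p14, 59098 genes). The 10 gene lists, with 142 genes, were written by hand, and 2 further names, LINC00346 and LINC00441, were dropped because the annotation does not place them on the chromosome. The chromosome and the lists were chosen with earlier results of these data known. Genes named are the 10 whose lowest rank in any library was highest, the 5 and 10 strongest specific to 786-O and to Caki-1, list members, the 3 widest peaks of each list, the strongest peak of each window, the 5 genes with most body peaks in each list, and the longest runs and stretches. TEX29 was named after its value was seen. Overlap meant at least 1 bp. With 3 libraries the smallest p between the lines is 0.333, so no such test was made. Python 3.11.15, numpy 2.4.6, pandas 2.3.3, scipy 1.17.1 and matplotlib 3.10.9 were used, and the counting was tested on simulated data. Alternatives changed the strength threshold, list length, share unit, gene-end window, bin, overlap, guard distance and libraries. Some marker genes are not reported here.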

Additional observations from a re-analysis of the deposited data

How the results depend on the processing

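Of 40 alternatives, 26 left the value the same, 14 moved it up or down and 0 reversed it. Only the ratio of shares could be labelled reversed, so for all other results that label was not possible. For the ratio of shares, the same meant within the spread between the Caki-1 replicates. Leaving out either replicate was thus bound to count as the same for that ratio. For percentages it meant within the exact interval for counting error of the main value, and for counts within 1.5 times the count. With the stronger 50% of each list the ratio of shares was 0.391, 80.7% of 786-O peaks overlapped Caki-1, 31.9% of Caki-1 replicate 1 peaks overlapped 786-O, 39.0% of 786-O peaks lay at gene ends and 3 genes were specific to 786-O. With the same number of strongest peaks from each list the ratio was 0.440 (0.4395). With 5 Mb windows 20 of 20 windows with peaks were lower in 786-O, so the count moved only because there were more windows. At an overlap of 50% of both peaks the 2 overlap shares were 55.1% and 20.4%. A gene-end window of 3 kb gave 25.3% of 786-O peaks at gene ends, and without the guard distance 11 genes were specific to 786-O. Leaving out each Caki-1 library in turn gave ratios of 0.444 and 0.460, overlap shares from 60.8% to 66.2%, from 158 to 164 genes marked in all libraries left, from 35 to 39 genes specific to Caki-1 and from 8 to 11 specific to 786-O. The causes were not tested, except that with fewer libraries fewer conditions must be met. No paired analysis was possible because the lines share only 1 replicate number and no value comes from a test. The depth of the libraries is unknown, 786-O has no replicate, and the Caki-1 replicates may be technical, so nothing here separates the lines from these libraries.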
